A study of Mus musculus with 7 samples.

Results

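The comparison set the 2 arrays whose sample titles end in GFP against the 5 arrays whose titles end in a number, out of 7 arrays in all. Each array held RNA of mouse skin tumour cells, labelled as CD34+ cells that were sorted by flow cytometry for Cd34 and Epcam from tumours raised with the carcinogen DMBA and the growth promoter TPA. The groups were carcinoma GFP (1 array), papilloma GFP (1 array), untagged carcinoma (3 arrays, called carcinoma 1, 2 and 3 here) and untagged papilloma (2 arrays, papilloma 1 and 2). Carcinoma is the malignant form of these tumours and papilloma the benign one. The sample descriptions of all 7 arrays name Nr2f2, a nuclear receptor that is also in the title of the series, and state no genotype, strain, age or time.

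What GFP stands for is not explained in the labels: whether a reporter gene, a transplanted cell line or a sort is meant is not known, nor which promoter would drive it. With 1 GFP array per tumour type, the spread of the GFP group rests on a pair of arrays that also differ in tumour type. Whether any arrays share an animal or an RNA extract is not stated, and the p-values therefore cover no more than the array-to-array spread seen here, which may be technical. The values are log2 expression levels from RMA, a method that corrects and equalises array signals, and a difference of 1 is a factor of 2 in signal. Levels of different genes are not compared, because probe sets differ in how brightly they bind.

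Squamous tumours of the skin grow from keratinocytes, the epithelial cells that make keratin filaments and bind to each other through desmosomes and E-cadherin. Around them lies stroma: blood and lymphatic vessels lined by endothelial cells, pericytes that wrap the vessels, fibroblasts that lay down collagen, and immune cells. Cd34 is carried by endothelial cells and some fibroblasts as well as by stem cells of the hair follicle and of skin tumours, whereas Epcam marks epithelial cells. In RNA from a mixture, fewer cells of a type and less RNA per cell cannot be told apart.

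The GFP arrays carried higher levels of many endothelial, fibroblast and pericyte genes and lower levels of many epithelial genes. The keratin genes of basal keratinocytes stayed bright on all 7 arrays. Dimmer than the array median on every untagged array were 20 of 29 shared endothelial, 8 of 22 fibroblast and 7 of 14 pericyte and smooth muscle genes. Brighter than it on every untagged array were 3, 6 and 4 of these, against 42.9% of all genes. Among 18193 genes, each represented by 1 probe set, 2159 were called higher in the GFP arrays (11.9%) and 1442 lower (7.93%), 3601 in all (19.8%), by limma with tumour type as a covariate and a Benjamini-Hochberg adjusted p below 0.05. Both GFP arrays lay above every untagged array for 3819 genes (21%) and below every untagged array for 3613 (19.9%). The higher calls were the larger ones: their median difference was 1.73, against -1.26 for the lower calls and -0.05 over all genes, and 85 of them exceeded 5 log2 units. Regardless of the test, 948 genes (5.21%) were more than 2 units higher and 231 (1.27%) more than 2 units lower. The counts rested on both GFP arrays. Without carcinoma GFP 637 genes were called higher and 224 lower, without papilloma GFP 1121 and 341, and without carcinoma 2 the lower calls numbered 946.

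Pairs of arrays gave the same division. The GFP arrays, 1 from a carcinoma and 1 from a papilloma, differed by more than 2 log2 units in 80 genes (r = 0.983 across genes, which are not independent). The 10 pairs of untagged arrays differed that far in 17 to 439 genes (r = 0.944 to 0.992). The closest of them, at 17 genes and r = 0.992, was carcinoma 2 with papilloma 1, so closeness across tumour types was not particular to the GFP arrays. The 10 pairs of a GFP and an untagged array differed that far in 1248 to 1567 genes (r = 0.857 to 0.893).

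The array also carries control probe sets at the 3' end, the middle and the 5' end of a few transcripts. RNA is copied for these arrays from its poly-A tail at the 3' end, so degraded or strongly amplified RNA gives a weaker signal at the 5' end. For Gapdh, a glycolytic enzyme, the 3' minus 5' difference was 3.19 in carcinoma GFP and 3.19 in papilloma GFP, and 0.06, -0.01 and -0.02 in carcinoma 1 to 3 and -0.04 and 0.05 in papilloma 1 and 2. The 5' Gapdh probe set was lower in the GFP arrays, at 9.74 and 9.70 against 12.86 to 13.69, whereas the 3' levels of 12.94 and 12.89 touched the untagged range of 12.92 to 13.68. For beta-actin the 3' minus 5' difference was 2.21 and 2.58 in the GFP arrays against 0.51 to 0.87 in the untagged arrays. The groups did not overlap for either transcript.

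The 3' minus 5' difference was also larger in transcripts that do not come from mouse cells. The poly-A controls dap, lys, phe and thr are bacterial transcripts that are added to the RNA before labelling, and for all 4 the 3' minus 5' difference was larger in both GFP arrays than in any untagged array, by 1.40 (dap) to 3.12 (lys) log2 units. The 3' probe sets of these 4 controls were also brighter in the GFP arrays, by 1.41 to 2.65 log2 units. Their 5' probe sets differed by 0.01 (dap), -1.04 (lys) and 0.56 (phe), with overlapping groups, and thr was higher by 1.16 without overlap. Unlike in Gapdh, the gap in dap, phe and thr thus lay in a brighter 3' end and not in a lower 5' end. The 3' minus middle difference was larger in the GFP arrays by 0.83 for thr and 0.58 for phe, but by 0.11 for lys and 0.0 for dap, where the groups overlapped. The hybridisation controls bioB, bioC, bioD and cre, which are added after labelling, differed by -0.20 to 0.18. The 3' minus 5' differences of the transferrin receptor and pyruvate carboxylase controls, both dim, overlapped between the groups. The 3' minus middle difference of the transferrin receptor was smaller in the GFP arrays, at 1.16 and 0.78 against 1.25 to 1.96, without overlap. For Gapdh and beta-actin that difference was larger in the GFP arrays, by 0.98 and 0.49, and for pyruvate carboxylase the groups overlapped. The exact two-sided permutation p was 0.0952 for Gapdh, beta-actin and each poly-A control, the smallest that the 21 splits of 2 against 5 arrays allow, and 0.143 after adjustment over the 12 controls. The hybridisation controls bioC and bioD, with differences of -0.20 and 0.18, were also separate between the groups and gave the same p, so Gapdh, beta-actin and the poly-A controls stand apart from them in size and not in p. Because both GFP arrays have a steep 3' to 5' difference and no untagged array has one as large in Gapdh, beta-actin or the poly-A controls, the tag and this gradient cannot be told apart in any result that follows.

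**Figure D1:**
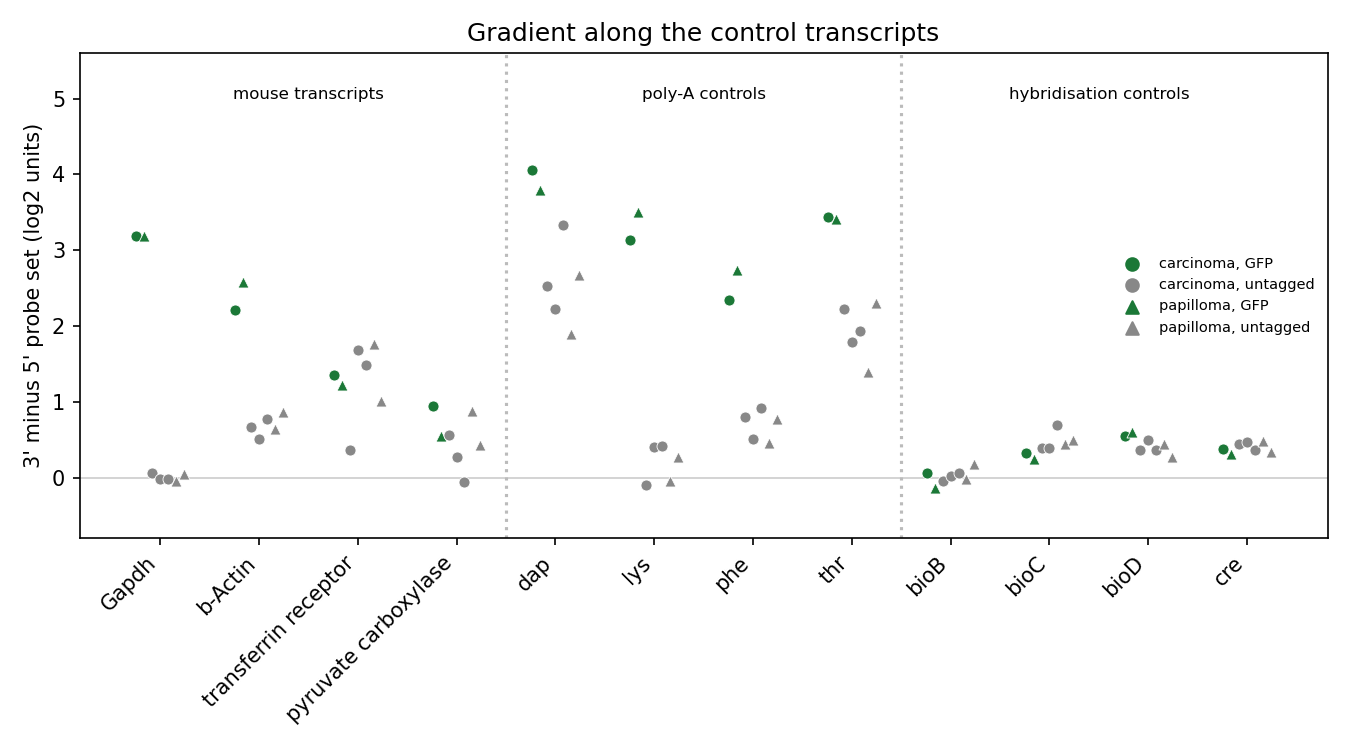
The 3' minus 5' difference (log2 units, vertical axis) of 12 control transcripts in each of the 7 arrays, with GFP arrays in green, untagged arrays in grey, circles for carcinoma and triangles for papilloma. For Gapdh, beta-actin and the 4 poly-A controls both GFP arrays lie above the 5 untagged arrays, and for the 4 hybridisation controls the group means differ by -0.20 to 0.18.

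Calls in the gene lists below stand beside the 11.9% of all genes called higher and the 7.93% called lower. The shared endothelial list had the largest median difference of the 41 gene lists described. Of its 29 genes, 28 rose and 0 fell, with a median difference of 5.05 against -0.05 over all genes, and the same number, 28, was called with either GFP array left out. In the 17 lists of cell identities, the number of genes lower at an unadjusted p below 0.05 was 0, apart from 2 in the Schwann cell list. Kdr, the main receptor for the vessel growth factor VEGF-A, read 12.54 in carcinoma GFP and 12.44 in papilloma GFP. It read 6.07, 6.16 and 6.56 in carcinoma 1 to 3 and 6.05 and 7.11 in papilloma 1 and 2. The GFP arrays were thus far above the untagged range, and the difference was 6.08 (SE 0.32, adjusted p = 8.21e-05), a factor of about 67.6. Cdh5, the cadherin of endothelial junctions, read 11.30 and 11.02 in the GFP arrays, and 4.86, 5.47, 4.23, 4.58 and 5.42 in carcinoma 1 to 3 and papilloma 1 and 2 (difference 6.24, SE 0.38, adjusted p = 0.000137). Plvap, which forms the diaphragms of endothelial pores, read 12.93 and 12.90, and in the same order of untagged arrays 6.72, 7.11, 5.22, 6.44 and 6.83 (difference 6.43, SE 0.49, adjusted p = 0.000353). Neither gene overlapped between the groups.

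**Figure D2:**
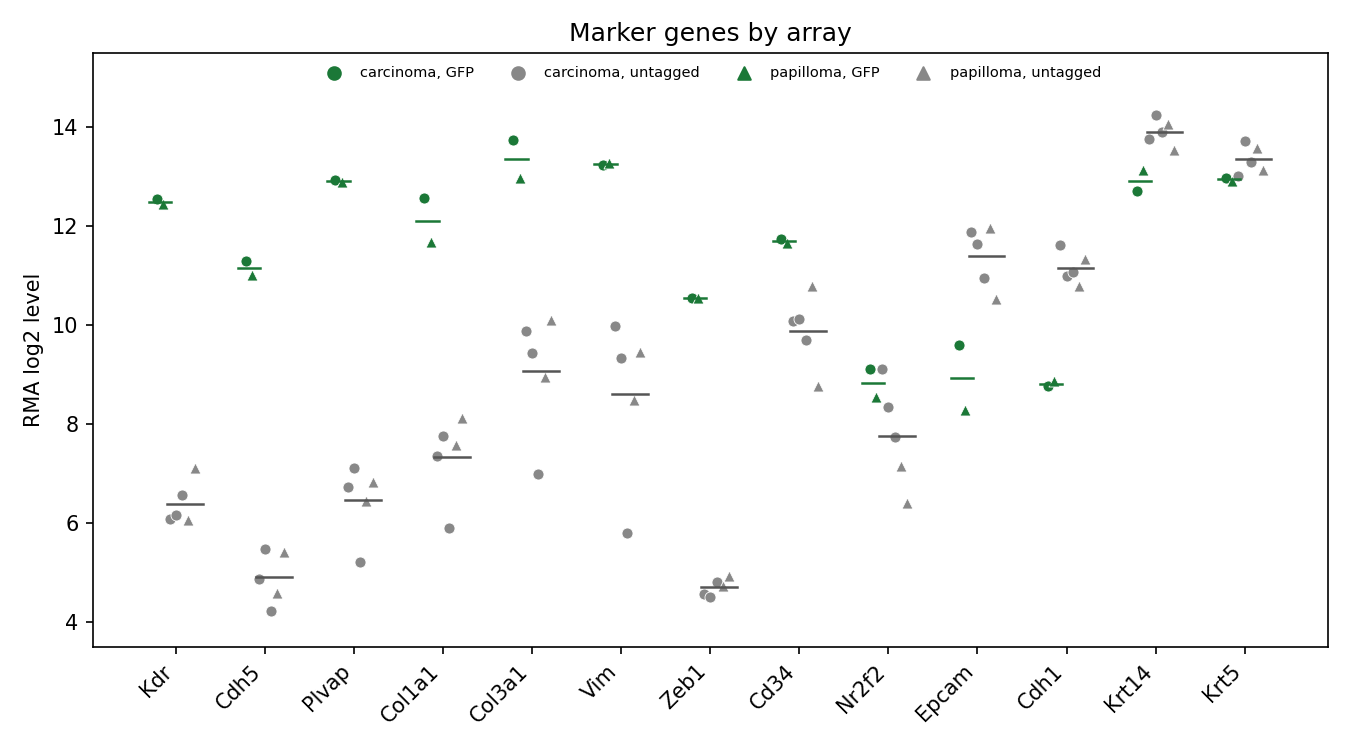
RMA log2 levels of 13 genes in each of the 7 arrays, with GFP arrays in green, untagged arrays in grey, circles for carcinoma, triangles for papilloma and short lines at the group means. Endothelial (Kdr, Cdh5, Plvap) and mesenchymal genes (Col1a1, Col3a1, Vim, Zeb1) are higher in both GFP arrays, Epcam and Cdh1 are lower, Nr2f2 overlaps between the groups, both GFP arrays lie just below the untagged range for Krt5, and Krt14 stays above 12 in every array.

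Of the 14 genes with the largest rise, several are known from endothelium. Aplnr, the receptor of the vessel peptide apelin, had the largest difference, 7.40 (SE 0.39), from 4.32 to 5.85 in the untagged arrays to 12.77 and 12.79. Vwf, the clotting factor stored in endothelial cells, rose by 7.01 (SE 0.22), and Cd93, Adgrf5, Podxl and Tmem204 by 6.86, 6.81, 6.65 and 6.88. Gimap4, a small GTPase of lymphocytes and vessels, rose by 7.10, Col13a1, a transmembrane collagen, by 7.04, and St8sia4, which builds polysialic acid, by 6.68. The endothelin receptor Ednrb, the Ras activator Rasgrp3, the lymphatic growth factor Vegfc and the basement membrane collagen Col4a1 rose by 6.53, 6.47, 6.44 and 6.42, and Plvap completes the 14. Of these, Col4a1 was not called without carcinoma GFP (difference 6.28, adjusted p = 0.0789).

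Receptors, transcription factors and subtype markers of the vessel wall moved together. The angiopoietin receptor Tek rose by 6.11, the VEGF receptors Flt1 and Flt4 by 5.70 and 5.40, and the phosphatase Ptprb by 6.12. Among transcription factors of the lineage, Sox18 rose by 6.09, Erg by 5.47, Sox17 by 3.12 and Lyl1 by 1.68, while Sox7 was bright on every array (10.06 and 9.96 in the GFP arrays, 8.49 to 10.01 in the untagged arrays) and was the 1 gene of the shared list not called (adjusted p = 0.391). Of 10 arterial genes 9 rose and 0 fell (median 2.83), among them the connexin Gja4 (4.95), Sema3g (4.69) and the Notch ligand Dll4 (3.98). The other arterial gene, the Notch ligand Jag1, differed by -0.71 (adjusted p = 0.258; -0.93 and 0.0341 without carcinoma 3), and both of its dimmer probe sets were called lower, at -2.14 and -1.32 (adjusted p = 0.0371 and 0.0465 over all probe sets). Of 12 venous and tip-cell genes 9 rose and 0 fell (median 3.47), including Esm1 (5.74) and Lrg1 (5.70). Nr2f2, which specifies veins and is also made in tumour keratinocytes, read 9.12 and 8.54 in the GFP arrays and 9.12, 8.35, 7.74, 7.16 and 6.40 in the untagged arrays. These ranges overlap, and the difference of 1.21 (SE 0.44) was not called (adjusted p = 0.107), although without carcinoma 1 it was (1.42, adjusted p = 0.0412). Dimmer probe sets of Nr2f2 were called higher, at differences of 2.56 and 2.13 (adjusted p = 0.0102 and 0.00602 over all probe sets).

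Most lymphatic endothelial genes were higher in the GFP arrays, and the mean level of the list was highest in the carcinoma one. Of 6 measured, 5 rose and 0 fell (median 4.39), 3 rose without carcinoma GFP and 1 in the papilloma arrays alone, and their mean level was 10.35 in the carcinoma GFP array, 8.14 in the papilloma one and 5.06 to 5.89 in the untagged arrays. Prox1, the factor that sets lymphatic identity, read 8.14 in carcinoma GFP, 4.59 in papilloma GFP and 3.44 to 3.70 in the untagged arrays. The carcinoma GFP array stood well above all others, and the papilloma GFP array slightly above the untagged range. Reln read 11.14 and 8.10 against 4.67 to 5.48, Mmrn1 10.34 and 7.76 against 3.74 to 4.03, and the hyaluronan receptor Lyve1 10.78 and 8.29 against 3.54 to 6.59. The 1 gene of the list that was not called read 10.11 and 9.47 against 6.16 to 10.83. Its groups overlapped, and the highest level was in an untagged array (difference 0.50, adjusted p = 0.816). For Prox1 the difference between tumour types in the GFP effect was 3.68 (SE 0.37), for Reln 2.94 (SE 0.58) and for Mmrn1 2.77 (SE 0.35), with an adjusted p of 1.0 each, so the test did not establish it. Prox1 (0.92, adjusted p = 0.138) and Lyve1 (2.86, adjusted p = 0.286) were not called without carcinoma GFP. Prox1 was also not called without carcinoma 1, 2 or 3, at adjusted p = 0.0726, 0.0751 and 0.0596.

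Matrix and fibroblast genes formed a second block. Of 22 fibroblast genes 17 rose and 0 fell, with a median of 4.04, and the mean level of the list was 10.63 in carcinoma GFP, 9.55 in papilloma GFP and 5.80 to 7.07 in the untagged arrays. Col1a1, a chain of the main fibrous collagen, read 12.56 and 11.67 in the GFP arrays and 7.35, 7.76, 5.89, 7.57 and 8.12 in carcinoma 1 to 3 and papilloma 1 and 2 (difference 4.74, SE 0.59, adjusted p = 0.0025). Col3a1 read 13.75 and 12.97, and in that order of untagged arrays 9.88, 9.44, 6.99, 8.96 and 10.11 (difference 4.25, SE 0.83, adjusted p = 0.014). Both collagens were therefore above every untagged array, of which carcinoma 3 was the lowest. Col6a1 and Col6a3 rose by 5.34 and 5.27, the matrix protein Dpt by 4.98, the mesenchymal factor Prrx1 by 4.83, the growth factor receptor Pdgfra by 4.06, and the small proteoglycans Lum and Dcn by 4.19 and 4.02. The fibroblast calls numbered 8 without carcinoma GFP. Col1a1, Lum, Dcn and Col3a1 were then at adjusted p = 0.0569, 0.0532, 0.175 and 0.213, and Col3a1 was at 0.0604 without papilloma GFP.

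Of 14 pericyte and smooth muscle genes 10 rose and 0 fell (median 2.68), 4 of them without carcinoma GFP. Pdgfrb, the receptor through which vessels recruit pericytes, rose by 6.22, and Rgs5, a marker of pericytes, by 4.99. The contractile genes Tagln and Acta2 rose by 3.15 and 2.98, and Mcam, which vessel cells share, by 3.15. Without carcinoma GFP, Mcam, Rgs5, Tagln and Acta2 were at adjusted p = 0.0587, 0.108, 0.113 and 0.404, and Acta2 was not called either without papilloma GFP, papilloma 1, carcinoma 1 or carcinoma 2 (0.0616 to 0.114). The pericyte proteoglycan Cspg4 was not called (0.83, adjusted p = 0.151). Of 13 basement membrane genes 10 rose and 0 fell (median 3.08; 6 with either GFP array left out), led by Col4a1, then Lama4 at 6.23, the nidogens Nid1 and Nid2 at 5.98 and 5.91, and Col4a2 at 5.94. Col4a1 and Col4a2 were at adjusted p = 0.0789 and 0.0913 without carcinoma GFP, and Col4a2 at 0.0613 without papilloma GFP. The epidermal counterpart Lama3, part of the laminin that anchors keratinocytes, differed by -1.24 and was not called (adjusted p = 0.156; -1.61 and 0.034 without papilloma 2).

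Mesenchymal regulators were also higher. Of 12 mesenchymal transcription factors 7 rose and 0 fell (median 1.77). Zeb1, a repressor of epithelial genes, read 10.54 and 10.55 in the GFP arrays and 4.57, 4.50, 4.81, 4.72 and 4.93 in the untagged arrays. The GFP arrays were far above the untagged range, by 5.92 in carcinoma and 5.72 in papilloma, and the difference over both tumour types was 5.82 (SE 0.17, adjusted p = 2.09e-05). Meox2, a homeobox gene of mesoderm, rose by 5.48, Tcf4 by 2.60 and Snai1 by 1.30, while Snai2, which basal keratinocytes also make, read 11.29 and 11.36 against 10.42 to 11.36 and was not called (0.27, adjusted p = 0.557). Zeb2 was not called with the probe set that stood for it (0.20, adjusted p = 0.574), but 3 other probe sets of Zeb2 were called higher, at 4.83, 2.37 and 1.83. On the GFP arrays these had means of 8.71, 5.76 and 6.21, against 5.6 for the probe set that stood for Zeb2. On the untagged arrays they were dimmer than it, at 3.91, 3.43 and 4.42 against 5.37. Vim, the intermediate filament of mesenchymal cells, read 13.24 and 13.28 in the GFP arrays and 9.98, 9.34, 5.80, 8.49 and 9.46 in the untagged arrays, with carcinoma 3 far below the other four. The Vim difference was 4.60 (SE 1.07, adjusted p = 0.0261), and it was not called without carcinoma GFP (adjusted p = 0.25), papilloma GFP (0.143) or papilloma 1 (0.0555). Cdh11 and Fn1, a mesenchymal cadherin and the matrix protein fibronectin, rose by 4.86 and 4.69. Cdh11 was at adjusted p = 0.0829 without carcinoma GFP, and Snai1 at 0.261 without carcinoma GFP and 0.0637 without papilloma GFP.

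**Figure D3:**
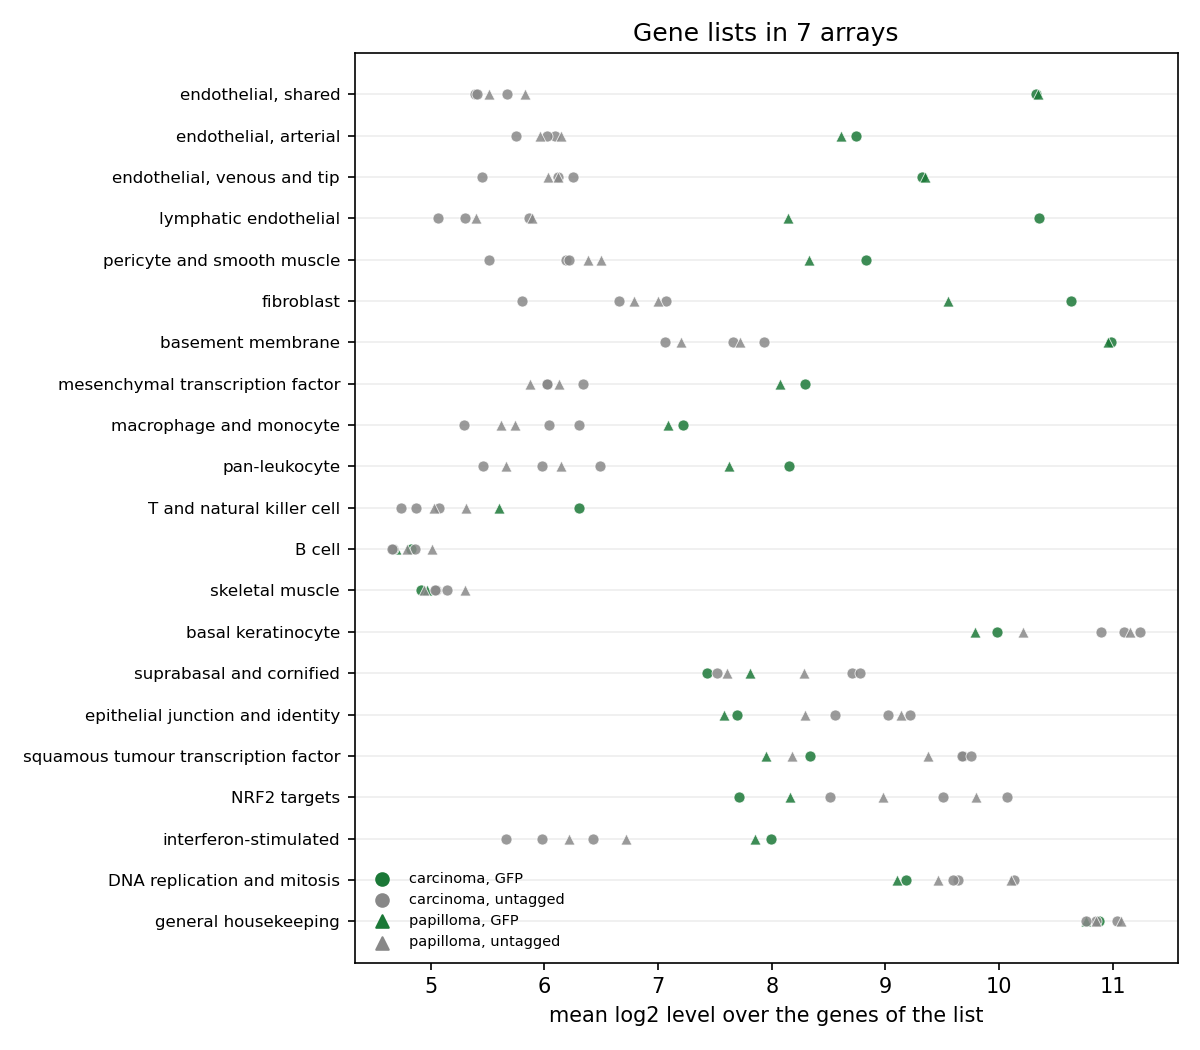
Mean log2 level of the genes of 21 lists in each of the 7 arrays, with GFP arrays in green, untagged arrays in grey, circles for carcinoma and triangles for papilloma. The shared endothelial list lies at 10.32 and 10.34 in the GFP arrays and at 5.39 to 5.83 in the untagged arrays, whereas the B cell, skeletal muscle and general housekeeping lists overlap between the groups.

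Immune genes rose less and less evenly. Over all genes 11.9% were called higher and 7.93% lower, and the 1 of 8 Schwann cell genes called higher is near the first share. Of 7 pan-leukocyte genes 3 rose and 0 fell (median 1.71), with the phosphatase Ptprc (CD45) at 8.96 and 8.30 in the GFP arrays and 5.53, 6.13, 5.61, 6.06 and 4.51 in the untagged arrays. Ptprc therefore did not overlap (difference 3.11, SE 0.41, adjusted p = 0.00321; 0.0682 without carcinoma GFP). The actin-bundling protein Lcp1 rose by 5.12. Of 16 macrophage and monocyte genes 9 rose and 0 fell (median 1.31), but 1 was called with either GFP array left out. They included the growth factor receptor Csf1r (3.21), the mannose receptor Mrc1 (3.46), the scavenger receptor Cd163 (2.73) and Adgre1 (1.03). Other probe sets of Csf1r differed by 1.51 and 0.03 (adjusted p = 0.00406 and 0.951 over all probe sets). The latter had means of 7.03 in the GFP arrays and 7.0 in the untagged arrays. Without carcinoma GFP, Mrc1, Cd163 and Adgre1 were at adjusted p = 0.166, 0.0823 and 0.294, and without papilloma GFP at 0.0688, 0.238 and 0.231. Cd163 was at 0.0528 without carcinoma 1, and Adgre1 at 0.0585 to 0.0821 without carcinoma 1, 2 or 3 or papilloma 1. Of 13 T and natural killer cell genes 4 rose (median 0.81), the largest being Thy1 (4.02), which fibroblasts and vessels also make, while the T cell receptor subunit Cd3e was at 6.39 and 6.15 against 5.81 to 6.38 and was not called. Of the T and natural killer cell list 0 genes were called without carcinoma GFP (median 0.23) and 6 without papilloma GFP (median 1.32). In the B cell list 0 of 5 genes were called by limma (median 0.08; 1 higher at an unadjusted p below 0.05; Ms4a1 -0.49, adjusted p = 0.241). In the skeletal muscle list 0 of 9 were called, and 0 passed unadjusted (median -0.18). In the melanocyte list 3 of 8 genes rose, with Kit, which mast cells share, at 3.57 (1 of the 8 with any single one of carcinoma GFP, papilloma GFP, carcinoma 1 and papilloma 1 left out), and in the Schwann cell list 1 of 8 rose and 2 fell, with Sox10 at 0.25 (adjusted p = 0.743). Of 6 adipocyte genes 2 rose, Lpl (3.60) and Adipoq (2.16). Thy1 and Lpl were at adjusted p = 0.127 and 0.0524 without carcinoma GFP.

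Interferon-stimulated genes were also higher. Of 20 measured, 12 rose and 0 fell (median 1.30), among them the guanylate-binding proteins Gbp3 (3.85) and Gbp2 (3.79), the GTPase Iigp1 (4.18) and Ifit2 (3.28). At an unadjusted p below 0.05 1 gene was lower, and Mx1 was not called (-0.14, adjusted p = 0.735). Iigp1 read 10.68 and 10.27 in the GFP arrays, but 4.34, 5.32 and 4.84 in carcinoma 1 to 3 and 7.17 and 8.76 in papilloma 1 and 2, so the step was larger in carcinoma (5.85) than in papilloma (2.30). The difference between these steps, 3.54 (SE 0.99), did not pass the test (adjusted p = 1.0). In the list of antigen presentation 3 of 15 genes rose (median 0.78), against 11.9% of all genes. They were the class II genes Cd74 (2.73), H2-Aa (2.60) and H2-Ab1 (2.37), while B2m, the light chain of class I, differed by 0.78 (adjusted p = 0.146). Without carcinoma GFP 2 interferon genes were called, and without papilloma GFP 6. Iigp1, Gbp2, Cd74, H2-Aa and H2-Ab1 were at adjusted p = 0.161, 0.179, 0.112, 0.354 and 0.339 without carcinoma GFP. H2-Aa and H2-Ab1 were at 0.144 and 0.11 without papilloma GFP, 0.0744 and 0.0646 without carcinoma 1, and 0.0766 and 0.0631 without papilloma 1.

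Genes of vessel signalling lay on both sides. Of 17 VEGF and Notch ligands and receptors 7 rose and 2 fell (median 1.10). The VEGF co-receptor Nrp1 rose by 5.52 and the endothelial Notch receptor Notch4 by 6.26. Vegfa, the ligand of Kdr, fell by 1.79 on the log2 scale (SE 0.45, adjusted p = 0.0347), from 8.59 to 10.78 in the untagged arrays to 8.0 and 7.62. Vegfa was not called without carcinoma GFP, papilloma GFP, carcinoma 2 or papilloma 1 (adjusted p = 0.316, 0.153, 0.0632 and 0.0626). Of 16 vascular TGF-beta and BMP genes 9 rose and 0 fell (median 1.65), among them the endothelial receptors Eng (4.03) and Acvrl1 (3.26) and the ligand Tgfb2 (3.49), and 3 were called without carcinoma GFP and 6 without papilloma GFP. Nrp1 and Tgfb2 were at adjusted p = 0.106 and 0.195 without carcinoma GFP, and Nrp1 at 0.0603 without papilloma GFP.

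Cd34 and Epcam, the antigens of the sort, moved in opposite directions. Cd34 read 11.73 and 11.66 in the GFP arrays and 10.08, 10.13, 9.69, 10.80 and 8.76 in carcinoma 1 to 3 and papilloma 1 and 2. The GFP arrays were above all untagged arrays, but the rise of 1.81 (SE 0.50, adjusted p = 0.0473) was not called with either GFP array or any single untagged carcinoma array left out (adjusted p = 0.0794 to 0.288). Epcam read 9.59 and 8.28 in the GFP arrays and 11.88, 11.63, 10.96, 11.97 and 10.52 in the untagged arrays. It was thus below all untagged arrays (difference -2.40, SE 0.47, adjusted p = 0.0144), though not called without carcinoma GFP (adjusted p = 0.0778) or papilloma GFP (0.154). A second Epcam probe set, dimmer on the untagged arrays, differed by -0.13.

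Many epithelial junction genes were lower. Of 33 junction and identity genes 15 fell and 1 rose, against 7.93% and 11.9% of all genes, with a median of -1.02. Both GFP arrays lay below every untagged array for 23 of the 33, against 19.9% of all genes. The lower calls numbered 4 without carcinoma GFP, 5 without papilloma GFP and 0 in the papilloma arrays alone. Cdh1 (E-cadherin) read 8.76 and 8.86 in the GFP arrays and 11.61, 10.99, 11.07, 10.78 and 11.33 in the untagged arrays, a clear gap (difference -2.34, SE 0.25, adjusted p = 0.00141). Cdh3 (P-cadherin) fell by 3.13 on the log2 scale, the tight junction gene Cldn4 by 2.75, the vesicle GTPase Rab25 by 2.29, and the epithelial regulators Ovol2, Grhl2 and Esrp1 by 2.31, 2.05 and 1.32. Dsp, the desmosomal plaque protein, fell by 1.02 and stayed bright at 11.71 and 11.71. The 1 gene that rose was F11r (1.11), an adhesion molecule that endothelium shares. Without carcinoma GFP, Cldn4, Rab25, Grhl2, Esrp1, Dsp and F11r were at adjusted p = 0.317, 0.131, 0.0623, 0.237, 0.226 and 0.153. Without papilloma GFP, Cldn4, Rab25, Esrp1, Dsp and F11r were at 0.0865, 0.0628, 0.103, 0.0744 and 0.0962, and Cldn4 was at 0.0581 and 0.0594 without carcinoma 1 and 2.

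Family members with vessel or mesenchymal roles and those with epithelial roles took opposite signs in the 7 pairs listed. Cdh5 rose by 6.24 and Cdh1 fell by 2.34 among cadherins, Cldn5 rose by 5.88 and Cldn4 fell by 2.75 among claudins, and Erg rose by 5.47 and Ehf fell by 1.67 among ETS factors. Sox17 rose by 3.12 and Sox2 fell by 3.11, and Vim rose by 4.60 where Krt14 fell by 0.98. In the laminin and collagen pairs the epithelial members Lama3 (-1.24) and Col17a1 (-1.31, adjusted p = 0.125) were not called. Ehf and Sox2 were at adjusted p = 0.15 and 0.342 without carcinoma GFP and 0.308 and 0.0823 without papilloma GFP; Ehf was at 0.0623 and 0.0567 without carcinoma 2 and 3, and Sox2 at 0.0601 without papilloma 1. Col17a1 was called without papilloma 2 (-1.71, adjusted p = 0.0116). The pairs were chosen for these roles with earlier results known, so their opposite signs are a description.

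Promoter sequences of 5 of these genes are printed to show letters that factor families named above, ZEB and SNAI on one hand and ETS on the other, recognise. They run from 250 bases before to 50 after the start of each gene, from RefSeq (build GRCm38.p6), 5' to 3' on the gene's strand. In the promoters of Epcam (chr17:87635729-87636028 on the plus strand), Cldn4 (chr5:134946885-134947184 on the minus strand) and Dsp (chr13:38151044-38151343 on the plus strand), which fell, capitals mark CACCTG or its reverse CAGGTG, the letters of the E-box that ZEB and SNAI factors recognise. In the promoters of Flt1 (chr5:147725962-147726261 on the minus strand) and Cd34 (chr1:194938571-194938870 on the plus strand), which rose, capitals mark AGGAAG or its reverse CTTCCT, a form of the core recognised by ETS factors such as Erg.
Epcam: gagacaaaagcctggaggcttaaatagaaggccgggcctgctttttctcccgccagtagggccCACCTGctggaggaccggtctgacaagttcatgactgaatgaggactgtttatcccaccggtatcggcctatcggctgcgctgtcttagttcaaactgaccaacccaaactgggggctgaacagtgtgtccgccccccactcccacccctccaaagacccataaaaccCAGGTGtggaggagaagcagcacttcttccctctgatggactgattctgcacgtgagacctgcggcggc
Cldn4: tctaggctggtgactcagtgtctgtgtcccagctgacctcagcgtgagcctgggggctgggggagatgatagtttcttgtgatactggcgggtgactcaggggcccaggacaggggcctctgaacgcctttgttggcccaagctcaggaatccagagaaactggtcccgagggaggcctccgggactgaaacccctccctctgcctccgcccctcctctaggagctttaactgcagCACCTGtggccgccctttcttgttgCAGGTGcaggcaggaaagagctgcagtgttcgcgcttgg
Dsp: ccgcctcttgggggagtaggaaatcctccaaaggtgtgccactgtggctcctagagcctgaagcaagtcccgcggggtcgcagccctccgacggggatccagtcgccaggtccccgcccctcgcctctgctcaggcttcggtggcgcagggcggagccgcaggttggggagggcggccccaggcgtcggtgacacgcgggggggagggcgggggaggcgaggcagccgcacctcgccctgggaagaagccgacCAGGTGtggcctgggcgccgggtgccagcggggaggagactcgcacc
Flt1: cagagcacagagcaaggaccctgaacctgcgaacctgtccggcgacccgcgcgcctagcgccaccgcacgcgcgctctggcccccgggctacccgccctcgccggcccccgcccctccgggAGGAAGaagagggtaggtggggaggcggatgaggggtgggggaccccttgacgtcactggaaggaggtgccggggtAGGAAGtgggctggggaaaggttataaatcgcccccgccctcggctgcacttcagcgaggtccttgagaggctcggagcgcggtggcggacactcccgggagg
Cd34: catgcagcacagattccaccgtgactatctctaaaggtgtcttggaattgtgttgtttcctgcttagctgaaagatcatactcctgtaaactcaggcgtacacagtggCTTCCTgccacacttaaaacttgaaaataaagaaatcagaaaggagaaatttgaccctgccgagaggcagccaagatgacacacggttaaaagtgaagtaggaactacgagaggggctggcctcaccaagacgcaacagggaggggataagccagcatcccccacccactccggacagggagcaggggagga

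The first match starts at position -187 from the start of Epcam, -14 in Cldn4, 3 in Dsp, -129 in Flt1 and -142 in Cd34. CACCTG was present, on either strand, in 12 of 19 junction gene promoters with an entry, 5 of 12 of basal keratinocyte genes, 1 of 16 of shared endothelial genes, 1 of 14 of fibroblast genes and 1 of 10 of basement membrane genes, and in 19.7% of the promoters of all genes tested (14452 promoters). Over all genes called lower the share was 19.0%, and over those called higher 17.4%, so both were near the background. AGGAAG was present in 9 of 16 endothelial, 8 of 14 fibroblast, 6 of 12 basal, 5 of 19 junction and 2 of 10 basement membrane promoters, against 33.6% of all genes tested. The GC box letters GGGCGG were in 8 of 10 basement membrane, 12 of 19 junction, 6 of 12 basal, 4 of 14 fibroblast and 4 of 16 endothelial promoters and in 54.0% of all genes tested, 63.0% of those called higher and 66.1% of those called lower. The AP-1 letters TGANTCA and the letters TATAAA were in 6.33% and 9.87% of all genes tested, in 3 and 1 of the 19 junction promoters, 0 and 2 of the 16 endothelial, 1 and 3 of the 14 fibroblast, 0 and 1 of the 12 basal and 0 and 0 of the 10 basement membrane promoters. The 5 motifs and the 5 promoters were chosen after matches and values had been seen, each motif was searched on both strands whether or not its matches overlap those of another, and a match is a description of the letters and not of binding.

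Keratinocyte genes did not disappear from the GFP arrays. Krt14, the keratin of basal keratinocytes, read 12.72 and 13.13 in the GFP arrays and 13.76, 14.24, 13.90, 14.07 and 13.53 in the untagged arrays, lower but among the bright genes of every array. Its difference of -0.98 (SE 0.25, adjusted p = 0.0364) was not called when any array other than papilloma 2 was left out (adjusted p = 0.0605 to 0.411). Its partner Krt5 read 12.98 and 12.91 against 13.01 to 13.73, just below every untagged array, and was not called (-0.40, adjusted p = 0.313). Of 17 basal keratinocyte genes 6 fell and 0 rose (median -1.24). The largest difference of the list went the other way, at 3.46, with both GFP arrays above every untagged array, and was not called (adjusted p = 0.11). It was the 1 positive difference of the list. Of the 17 genes, 15 were brighter than the array median in both GFP arrays, against 17 in every untagged array and 47.8% and 42.9% of all genes. Without papilloma 2, the untagged array with the lowest level of this list (10.21), 10 were called lower; without carcinoma GFP 3 were, and without papilloma GFP 2. The master factor Trp63 fell by 1.34, the transcription factor Bnc1 by 1.75, Sfn (14-3-3 sigma) by 2.73 and Krt15 by 1.70. The laminin chain Lamb3 was at -1.40 (adjusted p = 0.121; -1.72 and 0.0478 without papilloma 2). Bnc1 and Krt15 were at adjusted p = 0.101 and 0.237 without carcinoma GFP and 0.0612 and 0.279 without papilloma GFP, and Trp63 was at 0.0862 without papilloma GFP. Krt15 was also not called without carcinoma 1, papilloma 1 or papilloma 2 (0.067 to 0.0872).

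Calls of differentiation, wound keratin, hair follicle and tumour factor genes stand beside the 7.93% of all genes called lower and 11.9% called higher. Of 21 suprabasal and cornified genes 2 fell and 1 rose (median -0.53), and the differences were negative for 17 and positive for 4. Krtdap fell by 2.39, Ovol1 by 2.20 and Lor, a cornified envelope protein, rose by 1.94. Krt10 differed by -0.06 (adjusted p = 0.966), and Krt13 and the simple keratin Krt18 by -1.77 and -1.95 with wide spread (adjusted p = 0.465 and 0.212); without papilloma 2 both were called lower (-3.03 and -2.72, adjusted p = 0.0352 and 0.0208). Krtdap was at adjusted p = 0.11 without carcinoma GFP, and Lor was not called with 1 of the GFP arrays, papilloma 1, papilloma 2 or carcinoma 2 left out (0.0519 to 0.311). Of 5 stress and wound keratins 1 fell and 0 rose (median -0.1), the one that fell being Krt17 (-2.29). The 1 positive difference of that list was 0.92, with both GFP arrays above every untagged array, and was not called. Of 11 hair follicle stem cell genes 1 rose and 1 fell, the latter Sox9 at -1.97 (SE 0.50), which was not called when any 1 of 6 arrays other than carcinoma 3 was left out (adjusted p = 0.0536 to 0.276). Of 10 squamous tumour transcription factors 4 fell and 0 rose (median -1.27; 2 fell with either GFP array left out), among them Sox2, Klf5 (-2.51) and Fosl1 (-2.51). Sox2, a driver of these tumours, read 5.11 and 4.06 in the GFP arrays and 10.26, 7.96, 8.75, 7.17 and 5.46 in the untagged arrays. The 2 groups were separate for Sox2, although papilloma 2 came within 1 unit of carcinoma GFP. Sox2 was at adjusted p = 0.342 without carcinoma GFP, 0.0823 without papilloma GFP and 0.0601 without papilloma 1, and Fosl1 at 0.158 without carcinoma GFP. Pitx1 was not called (-1.60, adjusted p = 0.352), but was without papilloma 2 (-2.56, adjusted p = 0.00404).

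The genes that fell furthest were a mixture. Net1 read 5.79 and 4.73 in the GFP arrays and 9.62, 9.56, 10.27, 9.82 and 8.55 in the untagged arrays. Cdkn2a, the tumour suppressor locus of p16 and p19, read 5.43 and 5.93, and 10.29, 9.82, 10.24, 9.72 and 9.40 in the same order. Both were far below every untagged array, with differences of -4.23 (SE 0.38) and -4.19 (SE 0.28). Epithelial genes among the 14 were the galectin Lgals7 (-3.63), the glycerol channel Aqp3 (-3.62), the ion transport regulator Fxyd3 (-3.50) and the glutathione peroxidase Gpx2 (-3.76). Ptk7, a receptor of planar polarity, fell by 3.18 and the protease Plau by 3.17. The other six are widely expressed or not epithelial: the RNA-binding proteins Cirbp (-3.86), Hnrnpl (-3.62) and Alyref (-3.23), the ubiquitin enzyme Ube2s (-3.75), the phosphatase Mtm1 (-3.25) and the kinase subunit Pik3cd (-3.37), which is best known from leukocytes. Without carcinoma GFP, Cirbp, Gpx2 and Plau were at adjusted p = 0.0516, 0.178 and 0.058, and Gpx2 was at 0.0794 without papilloma GFP. Hnrnpl read 7.16 and 7.06 in the GFP arrays and 10.52 to 10.83 in the untagged arrays. The 5' Gapdh probe set fell beside them by 3.61 on the log2 scale, and the part of the 3' gradient in these lower values was not tested.

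Several broad programmes had negative medians of smaller size, and their lower calls stand beside the 7.93% of all genes called lower. Of 23 replication and mitosis genes 5 fell (median -0.55), including Birc5 (-2.06) and Bub1 (-1.44), while the proliferation marker Mki67 was not called (0.45, adjusted p = 0.655). Of 17 immediate early genes 9 fell and 1 rose (median -0.67): Btg2, Ier3 and Egr3 fell by 2.60, 2.37 and 2.35, the flow-responsive factor Klf2 rose by 3.68, and Fos, among the brightest genes on every array, differed by -0.17. Of 11 NRF2 targets 3 fell (median -1.51), among them Nqo1 (-2.69), Gclm (-2.59) and Gpx2, but 0 were called without carcinoma GFP, 1 without papilloma GFP, 6 without carcinoma 3 and 5 without papilloma 2. Of 10 cholesterol synthesis genes 2 fell and 1 rose, with Fdps at -2.53, and 0 were called with either GFP array left out, while 5 fell without carcinoma 3. Lower calls of replication and mitosis genes numbered 1 with either GFP array left out, 3 without carcinoma 1 or papilloma 1, 2 without carcinoma 2 and 8 without papilloma 2. Lower calls of immediate early genes numbered 2 without carcinoma GFP and 3 without papilloma GFP, with 0 higher in both cases. Without carcinoma GFP, Bub1, Btg2, Klf2, Nqo1, Gclm and Fdps were at adjusted p = 0.241, 0.0565, 0.129, 0.156, 0.1 and 0.0816. Without papilloma GFP, Bub1, Egr3, Klf2, Nqo1 and Fdps were at 0.107, 0.109, 0.0894, 0.143 and 0.0598. Of 14 cytoplasmic ribosome genes 4 fell (median -0.25; Rps9 -1.79) and of 21 respiratory chain genes 5 (median -0.24; Atp5o -1.60). With carcinoma GFP left out 1 gene was called lower in each of these lists, and with papilloma GFP left out 1 ribosome and 2 respiratory chain genes were. Of 10 general housekeeping genes 0 were called by limma (median -0.21; 2 higher and 3 lower at an unadjusted p below 0.05), and of 15 long housekeeping transcripts, 2 rose and 0 fell (median 0.75; Sptan1 2.22).

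Probe sets of the same gene did not always give the same difference. Actb (beta-actin) read 13.76 and 13.83 in the GFP arrays with its brightest probe set, against 13.30 to 13.87, but 8.24 and 8.20 with its other one, against 11.95 to 12.24 (differences 0.22 and -3.91). The brightest one was not called (adjusted p = 0.524 over all probe sets) and the other was called lower (6.08e-05), so whether Actb is called depends on the probe set. A probe set counted as bright where the larger of its GFP and untagged means exceeded the median probe set. It could thus pass through the side where it was high, which favours probe sets that differ, so the shares below are a description. Of 833 genes called higher that had other bright probe sets, at least 1 of these had the same call in 450 (54.0%). At least 1 had the opposite call in 30 (3.6%), and a gene with several can count in both. Of 549 such genes called lower, 248 (45.2%) had the same call in at least 1 other bright probe set and 5 (0.911%) the opposite one. Over the 4859 genes with several bright probe sets the median gap between them was 0.86, and 511 (10.5%) had a gap over 2 log2 units. The Krt14 and Vim results held with a second bright probe set (-1.24 and 5.12). The other probe sets of Mtm1 were split: 1 fell by 2.52, and 1 with means of 6.6 (GFP) and 6.74 (untagged) differed by -0.12 (adjusted p = 0.816 over all probe sets). The other probe sets of Hnrnpl, Ube2s, Alyref and Pik3cd were dim and not called.

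**Figure D4:**
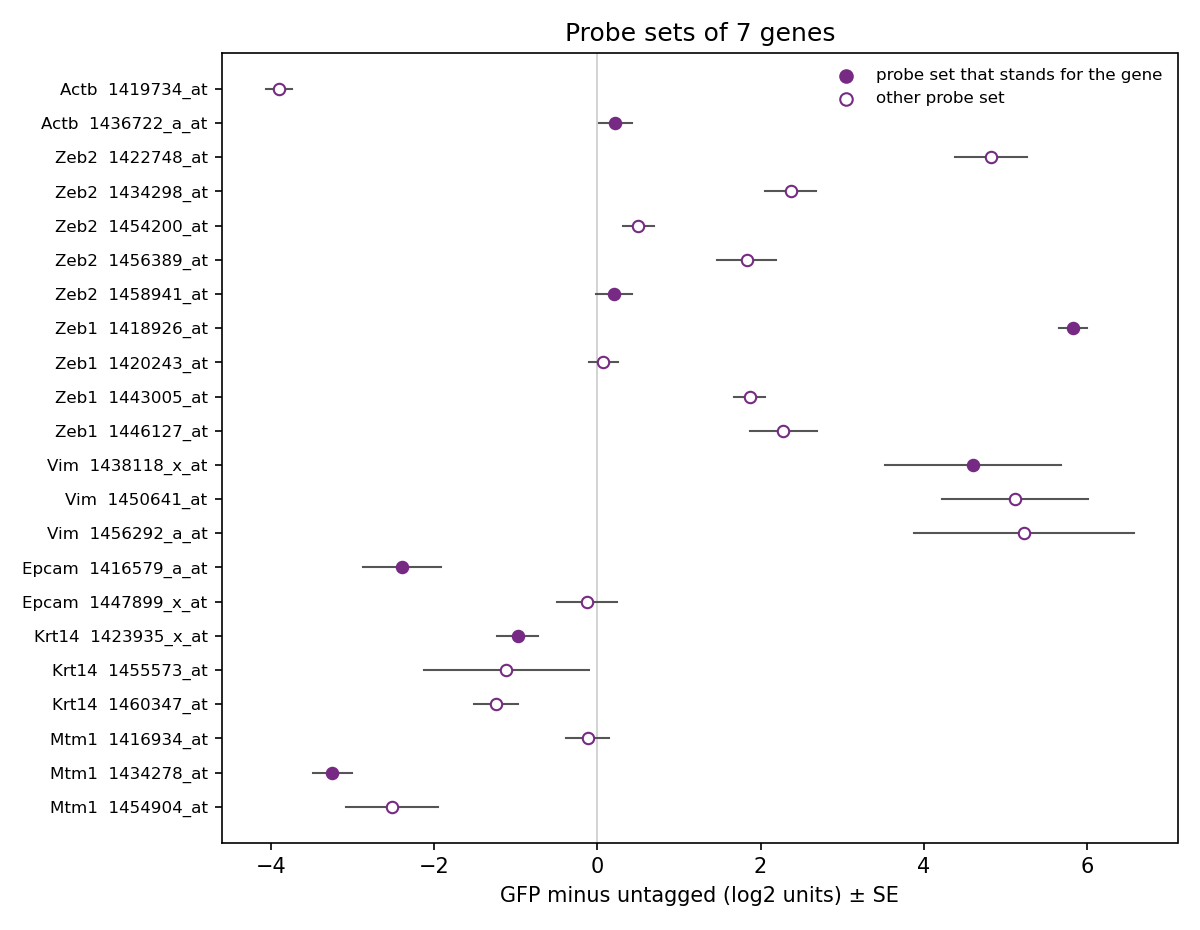
GFP minus untagged difference (log2 units, horizontal axis) with its standard error for each probe set of 7 genes, filled where the probe set stood for the gene and open for the others. The pair for Actb lies at 0.22 and -3.91, Zeb2 ranges from 0.20 to 4.83, and the 3 probe sets of Vim lie between 4.60 and 5.23.

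The contrast could be set side by side in carcinoma and papilloma, which share no array. Differences of the GFP array from its own tumour type correlated at r = 0.861 across genes, which are not independent replicates. In carcinoma 1109 genes (6.1%) were more than 2 log2 units higher and in papilloma 843 (4.63%), and 721 were in both sets, 65.0% of the first and 85.5% of the second. For genes more than 2 units lower the counts were 257 (1.41%) and 275 (1.51%), with 142 in both (55.3% and 51.6%). The interaction of tag and tumour type called 0 genes by limma, with 389 at an unadjusted p below 0.05 (1093 without papilloma 1). With 1 GFP array per tumour type, the lack of calls does not show that the types respond alike. The list medians that parted most were the lymphatic list (5.67 in carcinoma and 2.95 in papilloma) and the fibroblast list (4.82 and 3.03), and the shared endothelial list did not (5.15 and 4.94).

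**Figure D5:**
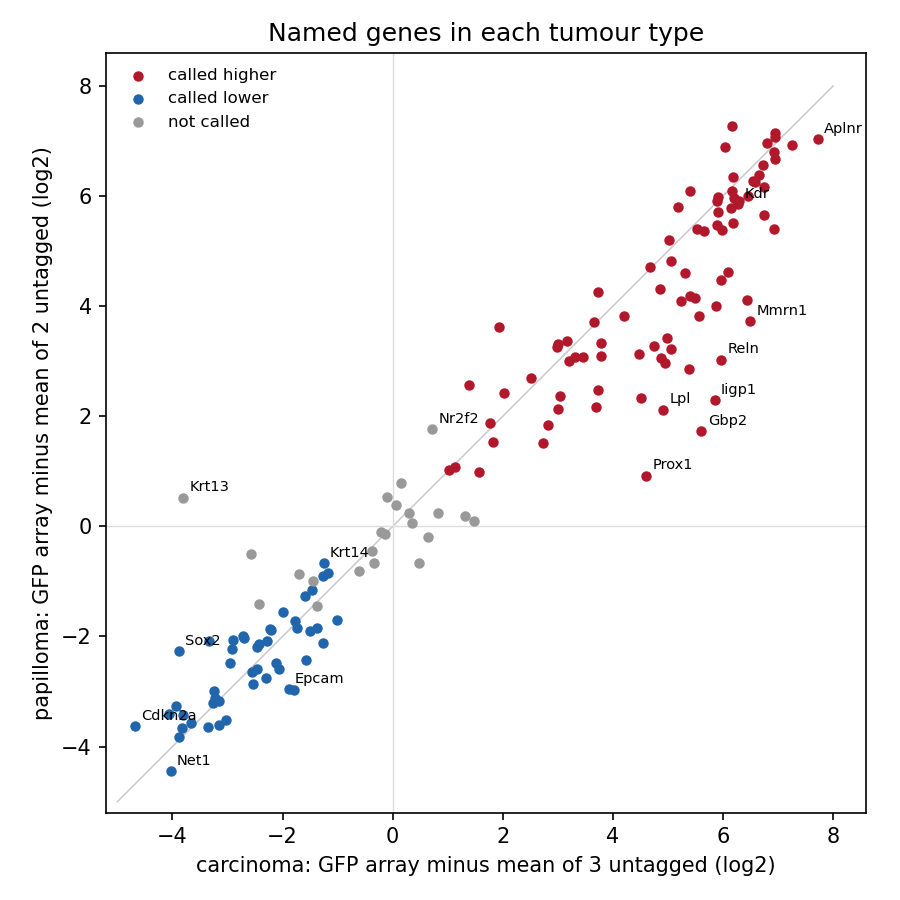
Difference of the carcinoma GFP array from the mean of 3 untagged carcinoma arrays (horizontal axis) against that of the papilloma GFP array from the mean of 2 untagged papilloma arrays (vertical axis), both in log2 units, for the 156 genes named or compared here, coloured by the call over all 7 arrays. Most points follow the line of equal difference, and Prox1 (4.61 and 0.92), Gbp2 (5.61 and 1.73) and Krt13 (-3.81 and 0.52) lie off it. Many of these genes were chosen by their difference over all 7 arrays, which favours points near the line.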

How the data were processed

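RNA from the sorted cells went through a micro kit, amplification and biotin labelling before hybridisation to an Affymetrix mouse strip array, and the authors applied RMA, per the labels' protocols. RMA and affy are also the tools in the submitters' processing notes. Their versions and the arrays processed together are unknown here. The deposited log2 values run from 2.72 to 14.51, a scale read from the values. Of 45101 probe sets, 34945 with 1 gene symbol in the platform annotation, which is that of the standard design, gave 18193 genes, each through the probe set of highest mean over the 7 arrays. The fit used lmFit and eBayes of limma 3.58.1 in R 4.3.3 with tumour type as covariate, two-sided, Benjamini-Hochberg adjusted over all genes at 0.05, and was tested on simulated data. The number of arrays limits precision. The 41 lists hold 565 genes, of which 526 are analysed here. Figures used matplotlib 3.10.9.

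The rule for named genes took Nr2f2, Cd34, Epcam and 8 markers, the 14 called genes with the largest difference in each direction (groups not overlapping, higher mean above the median gene, no clone name), up to 6 members per list and both genes of 7 family pairs. It named 270 genes, and 156 were taken up; 23 of these lie outside it and were picked with their values in view (Sox18, Sox7, Lyl1, Jag1, Cspg4, Pdgfra, Dcn, Lum, Cd3e, Adgre1, Krt5, Dsp, F11r, Grhl2, Esrp1, Zeb2, Snai1, Snai2, Mki67, Mx1, Fos, Actb and Krt10). Members, lists and pairs were chosen with earlier results of these data known. Alternatives were another scaling, probe set rule, filter, covariate or variance model, each tumour type alone, and each array left out.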

Additional observations from a re-analysis of the deposited data

Results flagged for a closer look

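The 10092 probe sets that name no single gene lie outside the comparisons by gene. When tested by the same fit, with adjustment over these probe sets alone, 143 of them were called higher and 134 lower in the GFP arrays. Both shares lie below the 11.9% and 7.93% of all genes called higher and lower. These data are not otherwise used here. No array stood apart among the 18 values tested over the 5 untagged arrays for a gap above 0.71 of the range, where chance flags about 1 in 20, and no named gene had every array of one tumour type moving against the other.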

How the results depend on the processing

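Counts of higher, lower and all calls (2159, 1442 and 3601) became 1256, 454 and 1710 with carcinoma arrays alone, 168, 1 and 169 with papilloma arrays alone, 3520, 3299 and 6819 with array weights and 674, 135 and 809 with limma's treat at a minimum difference of 1; the lowest-mean probe set gave 1307 higher and 2342 in all, and leaving out genes under the median gene gave 1229 higher. Leaving out 1 array gave 637 to 2207 higher, 224 to 1748 lower and 861 to 3955 in all. Higher calls made up 60.0% of calls, and 73.5% in carcinoma alone, 99.4% in papilloma alone, 48.1% without dim genes, 83.3% with treat, and 74.0% and 76.7% without carcinoma GFP and papilloma GFP. The shared endothelial median was 4.79 with the mean of probe sets, 4.59 with the lowest and 5.58 without dim genes; the fibroblast median was 4.82 in carcinoma alone, 3.03 in papilloma alone, 3.16 with the mean and 2.27 with the lowest probe set; the pan-leukocyte median was -0.13 with the lowest probe set and 0.77 without dim genes; the basal keratinocyte median was -0.86 in papilloma alone; and the Gapdh gradient was 3.33 after quantile normalization. Leaving out 1 array gave medians of 4.94 to 5.15 (shared endothelial), 3.03 to 4.82 (fibroblast), 1.36 to 1.96 (pan-leukocyte) and -1.31 to -0.86 (basal). With the lowest-mean probe set, often a dim one, Reln (-0.03), Acta2 (-0.08), Dcn (-0.28), Ptprc (-0.13), Lor (-0.16), Klf5 (0.29), Sox9 (0.17), Tcf4 (-0.11), Notch4 (-0.25), Fdps (0.0), Atf4 (0.01) and Actb (-3.91) changed sign, and Actb also with the mean of probe sets (-1.85); the cause was not tested. Of 134 called genes named, 78 kept their call without carcinoma GFP, 100 without papilloma GFP and 42 in papilloma alone, and 133 with quantile normalization. No paired analysis was possible because the GFP arrays carry no replicate number, so a block would be the tag itself.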
